A study of Homo sapiens with 10 samples.

Results

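The genes described here are 9 protein-coding neighbours of PSPC1 on chromosome 13, namely TUBA3C, MPHOSPH8, ZMYM5, ZMYM2, GJA3, GJB2, CRYL1, IFT88 and XPO4. They were chosen from the FPKM of all 10 deposited gene tables, and from the read counts of those that hold them, because they lacked reads in the SK-hep1 libraries, so their absence from SK-hep1 is a description of how they were chosen and not a finding. They are 9 of the 58302 gene records in the tables and 9 of the 48 records from the start of TUBA3C to the end of XPO4 (chr13:19173770-20903048, GRCh38, 1729.279 kb). PSPC1, the paraspeckle protein that the study overexpressed, lies inside this interval (chr13:19674752-19783019, minus strand).

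RNA-Seq was performed on 10 libraries, 1 per condition, without replicates. The SK-hep1 libraries came from a mock control and from cells that overexpressed PSPC1, PSPC1 with the tyrosine kinase PTK6, the PSPC1-YF mutant, or PSPC1-YF with PTK6, so the 5 share 1 parental line and are not replicates of a condition. The Mahlavu libraries came from a mock control, from cells given PSPC1-CT131, a C-terminal piece of PSPC1, and from cells given Mut-NLS, which the labels call an NLS mutation of PSPC1 and the study's text describes as PSPC1-CT131 with its nuclear localization sequence disrupted. The Huh-7 libraries came from untreated cells and from cells given hepatocyte growth factor (HGF), for which the labels of both Huh-7 samples give 10 ng/ml and 48 h. Per the study's text, the genes were introduced on expression plasmids, with both Mahlavu pieces fused to EGFP, and the labels do not say whether the sequenced cells were clones or pools. The labels describe all 3 as human hepatocellular carcinoma lines. Total reads on genes lay between 15245935 and 24278662 in the 10 libraries. The 8 hepatocyte markers summed to 28846 FPKM in Huh-7 untreated, to 21.6 FPKM in SK-hep1 mock and to 8.13 FPKM in Mahlavu mock, where ALB and TF were listed at 0, as they were in SK-hep1 mock. The 7 endothelial markers summed to 159.7 FPKM in SK-hep1 mock, 2.83 FPKM in Mahlavu mock and 7.35 FPKM in Huh-7 untreated. In SK-hep1 mock nearly all of it came from ENG at 158.9 FPKM, with the others between 0 (KDR and CDH5) and 0.689 FPKM (VWF). CDH5 had 0.362 FPKM in SK-hep1 PSPC1. The part that these cell type differences play in the results below was not tested.

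The 9 genes serve unlike purposes in the cell. MPHOSPH8 is the chromodomain subunit of the HUSH complex, which silences retroelements and marked chromatin, and ZMYM2 and ZMYM5 are MYM-type zinc finger proteins, of which ZMYM2 works with the LSD1-CoREST-HDAC corepressor. GJA3 and GJB2 are connexins, the subunits of gap junctions. CRYL1 is an L-gulonate dehydrogenase of the glucuronate-xylulose pathway, IFT88 is a core subunit of the IFT-B train that builds cilia, XPO4 is a nuclear export receptor with eIF5A and SMAD3 among its cargoes, and TUBA3C is an alpha tubulin. In a genome, neighbours can be lost, silenced or copied together, but RNA libraries do not measure the DNA, and copy number and promoter methylation were not tested here.

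The promoters of 4 members are shown, since these genes either resemble each other in sequence (ZMYM5 and ZMYM2) or carried reads in Mahlavu alone (TUBA3C and GJA3). Sequences are from RefSeq (GRCh38.p14), run 5′ to 3′ on the strand of the gene, and end at the RefSeq start or, for TUBA3C and ZMYM2, at the base before the deposited gene record. Capitals mark CCAAT on either strand (written ATTGG where it lies on the other strand). All 9 members had a RefSeq promoter entry. The windows are chr13:19863650-19863899 (ZMYM5, minus strand), chr13:19958477-19958669 (ZMYM2, plus strand), chr13:19181853-19182074 (TUBA3C, minus strand) and chr13:20161053-20161302 (GJA3, minus strand).
ZMYM5: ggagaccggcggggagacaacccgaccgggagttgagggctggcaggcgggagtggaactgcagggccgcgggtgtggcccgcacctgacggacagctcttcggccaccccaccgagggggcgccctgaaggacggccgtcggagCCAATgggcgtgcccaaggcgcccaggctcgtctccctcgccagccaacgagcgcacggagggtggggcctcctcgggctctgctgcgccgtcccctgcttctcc
ZMYM2: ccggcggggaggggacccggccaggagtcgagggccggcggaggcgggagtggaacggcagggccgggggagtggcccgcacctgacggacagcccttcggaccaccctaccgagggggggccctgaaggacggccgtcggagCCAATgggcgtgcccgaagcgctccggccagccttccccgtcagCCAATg
TUBA3C: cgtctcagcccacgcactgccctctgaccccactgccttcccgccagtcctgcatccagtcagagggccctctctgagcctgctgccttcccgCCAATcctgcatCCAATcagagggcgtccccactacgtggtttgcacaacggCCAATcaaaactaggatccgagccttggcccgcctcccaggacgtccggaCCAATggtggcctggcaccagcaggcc
GJA3: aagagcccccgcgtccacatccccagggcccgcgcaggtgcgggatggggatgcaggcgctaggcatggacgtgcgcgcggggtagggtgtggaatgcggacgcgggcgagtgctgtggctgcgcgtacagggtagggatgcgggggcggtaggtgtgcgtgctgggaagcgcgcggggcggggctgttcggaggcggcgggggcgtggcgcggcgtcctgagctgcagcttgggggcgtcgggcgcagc

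Over 250 bases before the RefSeq start, the promoters of ZMYM5 and ZMYM2 were identical at 211 of 245 aligned bases (86.1%). The other 44 pairs among the promoters of the 9 members and PSPC1 were identical at 49.1% to 67.0% of aligned bases. The longest reading frames of the 2 genes matched at 81.5% of 2000 aligned bases, over frames of 4134 bases for ZMYM2 and 2010 bases for ZMYM5. TUBA3C had 5 CCAAT motifs in its 250 bases, while 32.0% of 35116 RefSeq promoters held at least 1 and 0.874% held 4 or more. GJA3, GJB2 and IFT88 had no CCAAT, and held GGGCGG, searched on both strands, 2, 3 and 5 times. CRYL1 and XPO4 held GGGCGG 2 times each. Of all promoters, 42.6% held at least 1 GGGCGG and 7.63% held 4 or more. CG dinucleotides numbered between 14 (TUBA3C) and 41 (XPO4) in the promoters of the members, against a median of 11 over all promoters (quartiles 3 and 23). For XPO4 all 250 bases lie inside the deposited gene record. A motif match describes these letters only.

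In SK-hep1 cells, the interval was without reads apart from PSPC1. Across the 5 libraries, which together hold 111141982 reads on genes, 8 of the 9 members had 0 reads in every library, and the ninth, MPHOSPH8, had 1 read in PSPC1-YF. No other record of the interval had a read there besides PSPC1. In SK-hep1 mock, 3 reads, the limit taken for a count of 0, would have been between 0.0263 FPKM (XPO4) and 0.101 FPKM (CRYL1). Intervals and limits here cover counting error only, because each condition has 1 library, and the reads carry no molecular identifiers. PSPC1 itself had 0 reads in mock, 209 with PSPC1, 930 with PSPC1/PTK6, 71 with PSPC1-YF and 2539 with PSPC1-YF/PTK6, so the reads of the introduced gene appeared while its neighbours stayed at 0 or 1. The same records without PSPC1 carried 4508, 2615 and 3351 reads in Mahlavu mock, PSPC1-CT131 and Mut-NLS, and 3731 and 3509 reads in Huh-7 untreated and HGF. All 9 members had reads in each Mahlavu library, and 7 of 9 had reads in each Huh-7 library.

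On the far side of XPO4, expression resumed within a short distance. The first record with SK-hep1 reads was RPSAP54, a processed pseudogene 58.262 kb beyond the interval with 0 to 3 reads in these libraries. LATS2, a Hippo pathway kinase and the first record at 1 FPKM or more in both other lines, lies 69.984 kb beyond the interval and had 4931, 7869, 7989, 4175 and 4893 reads in SK-hep1 mock, PSPC1, PSPC1/PTK6, PSPC1-YF and PSPC1-YF/PTK6. The level of LATS2 was 75.8 FPKM in SK-hep1 mock, 17.6 FPKM in Mahlavu mock and 8.22 FPKM in Huh-7 untreated. SAP18, a histone deacetylase complex subunit, SKA3, a kinetochore protein, MRPL57, a mitochondrial ribosomal protein, and the pseudogene MIPEPP3 followed, with 110, 12.8, 16.5 and 2.91 FPKM in SK-hep1 mock. In Mahlavu mock the same 4 records had 70.4, 13.5, 16.9 and 3.01 FPKM. On the near side of TUBA3C the tables give no such edge, because 0 records before the interval reached 1 FPKM in both Mahlavu mock and Huh-7 untreated. The last record there with SK-hep1 reads was the lincRNA FAM230C, 941.746 kb away, with 3, 29, 0, 23 and 0 reads, and the 39 records between had at most 19 reads in any Mahlavu or Huh-7 library.

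**Figure D1:**
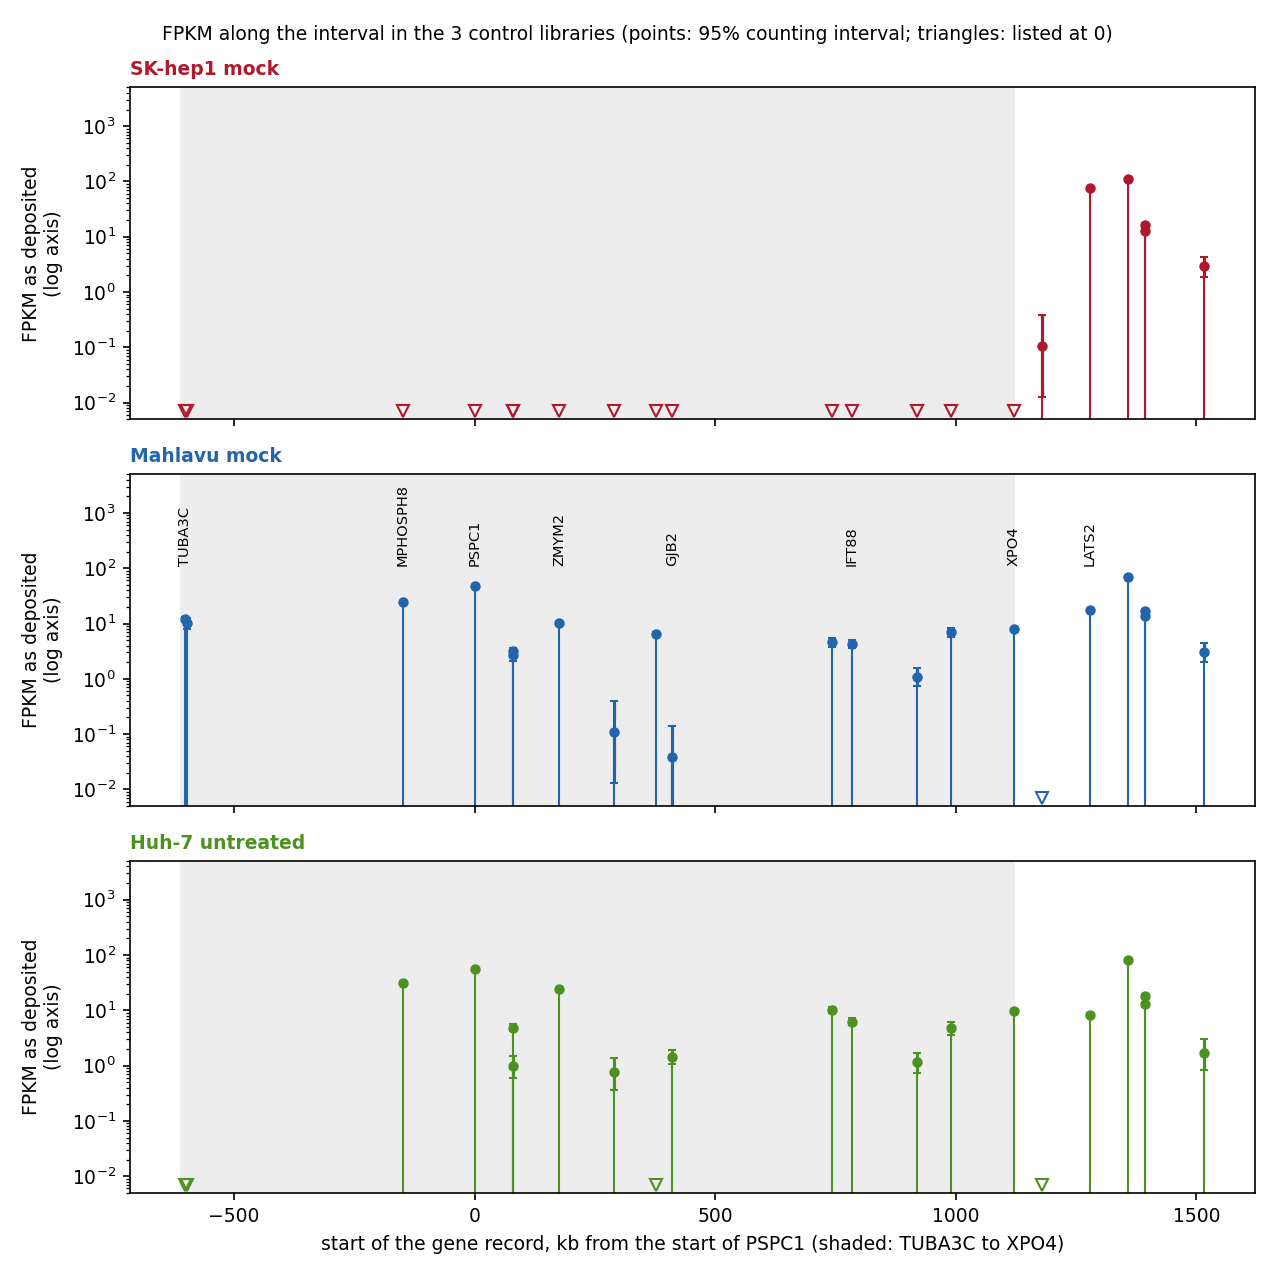
FPKM as deposited (log axis) against the start of each named gene record in kb from the start of PSPC1, in SK-hep1 mock, Mahlavu mock and Huh-7 untreated, with bars for the exact Poisson 95% interval of the reads, open triangles for records listed at 0, and shading from TUBA3C to XPO4. All points of SK-hep1 mock in the shaded part are triangles, while LATS2 beyond it stands at 75.8 FPKM.

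Across all genes, 11573 reached 1 FPKM in both Mahlavu mock and Huh-7 untreated, and 136 of them (1.18%) had 0 reads in all 5 SK-hep1 libraries. Of the 9 records of the interval among the 11573, 7 were in that set, including the 5 members ZMYM5, ZMYM2, CRYL1, IFT88 and XPO4, with the single read keeping MPHOSPH8 out and the introduced gene keeping PSPC1 out. Since the members were chosen on these reads, nothing is drawn from that share. When the 11573 genes were put in chromosome order, the 7 followed each other without a gap (ZMYM5, ZMYM2, CRYL1, IFT88, IL17D, EEF1AKMT1, XPO4). Of the 94 runs in SK-hep1, 77 were single genes, and a longer one held 10 genes on chromosome 19 from ZNF415 to ZNF331, mostly of zinc finger genes. Another run of 7 lay on the same chromosome, which held 49 of the 136 genes. The same scan gave 19 genes without reads in Mahlavu, none next to another, and 129 genes without reads in Huh-7 with a longest run of 3. It asked for 1 FPKM or more in SK-hep1 mock, so 0 records of the interval were tested for either line. The run in the interval follows from how the members were chosen, so its length was not compared with those of the other lines.

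**Figure D2:**
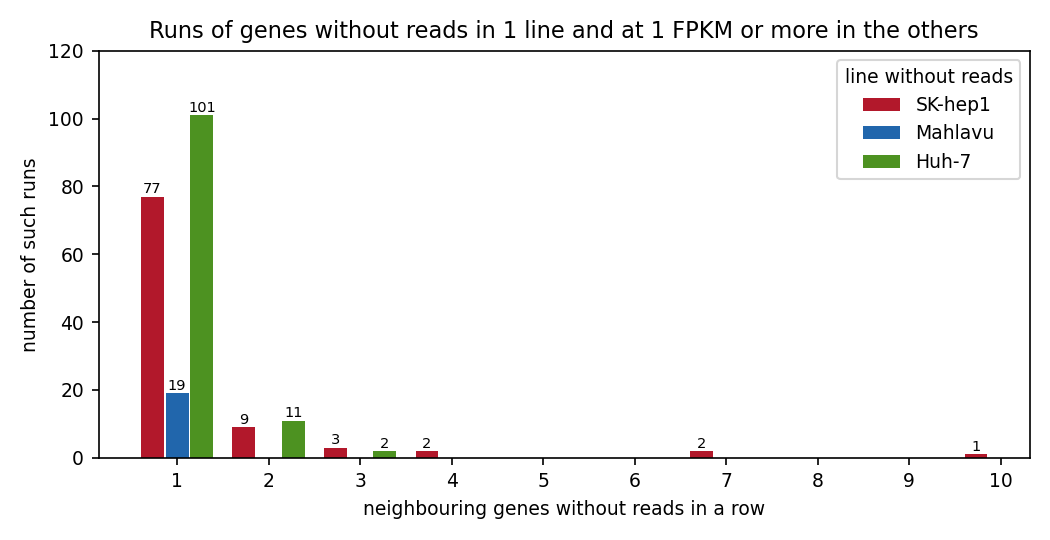
Number of runs (vertical axis) of neighbouring genes without reads, by the number of genes in the run (horizontal axis), for each line against the other 2, among genes at 1 FPKM or more in both others. SK-hep1 has 77 single genes, 2 runs of 7 genes and 1 run of 10, and 1 of the runs of 7 is made of the reads by which the members were chosen.

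Among genes outside the interval, those most like the members were taken as the 5 with the highest lowest FPKM over the 5 Mahlavu and Huh-7 libraries among genes without SK-hep1 reads. They were DSG2, a desmosomal cadherin, with 21.0 to 56.4 FPKM, HNMT, which methylates histamine, with 12.6 to 69.3 FPKM, GYG2, a glycogenin, with 12.5 to 75.4 FPKM, MAF, a transcription factor, with 11.8 to 33.5 FPKM, and LINC01224, with 9.27 to 21.1 FPKM. They lie on chromosomes 18, 2, X, 16 and 19.

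Among the chromatin regulators, MPHOSPH8 (chr13:19633681-19673459, plus strand) had the highest FPKM of the 9 members in every Mahlavu and Huh-7 library. That order depends on the gene lengths behind FPKM, and in Mahlavu mock XPO4 (943), ZMYM2 (837) and GJA3 (768) had more reads. MPHOSPH8 had 24.2 FPKM in Mahlavu mock (764 reads, exact Poisson 95% interval 22.5 to 26.0 FPKM), beside 15.8 FPKM with PSPC1-CT131 (434 reads) and 18.7 FPKM with Mut-NLS (496 reads). In Huh-7 it had 31.4 FPKM untreated (715 reads, 29.2 to 33.8 FPKM) and 29.9 FPKM with HGF (634 reads). Both Huh-7 values lay above all 3 Mahlavu values. Mahlavu mock was 243-fold above the level that 3 reads would give in SK-hep1 mock, a distance that follows from how the members were chosen. ZMYM2 (chr13:19958670-20091829, plus strand) had 10.2 FPKM in Mahlavu mock (837 reads, 9.56 to 10.96 FPKM), 5.17 FPKM in PSPC1-CT131 (369 reads) and 9.94 FPKM in Mut-NLS (683 reads). Its level was 23.9 FPKM in Huh-7 untreated (1407 reads) and 23.3 FPKM in Huh-7 HGF (1277 reads). PSPC1-CT131 was the low library for ZMYM2, and both Huh-7 libraries were above every Mahlavu library. ZMYM5 (chr13:19823482-19863636, minus strand), whose promoter resembles that of ZMYM2 above, was expressed at a lower level. It had 3.13, 1.86 and 2.94 FPKM in Mahlavu mock, PSPC1-CT131 and Mut-NLS (154, 80 and 122 reads), and 4.84 and 4.29 FPKM in Huh-7 untreated and HGF (172 and 142 reads). Here too PSPC1-CT131 was the low library of the Mahlavu cells.

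The connexin genes GJA3 and GJB2 lie next to each other and were read in different lines. GJA3 (chr13:20138255-20161049, minus strand), a connexin known from the lens, had 6.50 FPKM in Mahlavu mock (768 reads, 6.05 to 6.97 FPKM), 3.68 FPKM in PSPC1-CT131 (380 reads) and 8.004 FPKM in Mut-NLS (796 reads). It was listed at 0 in both Huh-7 libraries. In the untreated cells 3 reads would have been 0.0352 FPKM, and Mahlavu mock was 185-fold above that level. GJB2 (chr13:20187470-20192898, minus strand), a connexin of the inner ear and of epithelia that is also found in liver, had the opposite order. Its reads numbered 2, 2 and 6 in Mahlavu mock, PSPC1-CT131 and Mut-NLS, at 0.0387, 0.0443 and 0.138 FPKM, which is near the limit of 3 reads. In Huh-7 it had 1.45 FPKM untreated (54 reads, 1.09 to 1.89 FPKM) and 2.10 FPKM with HGF (73 reads, 1.65 to 2.64 FPKM). The read ratio of Huh-7 untreated to Mahlavu mock was 37.4 (9.87 to 317, exact binomial 95% interval, as for all read ratios below). The 2 reading frames share 70.1% of 675 aligned bases.

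CRYL1 (chr13:20403667-20525857, minus strand) had 4.55 FPKM in Mahlavu mock (141 reads, 3.83 to 5.36 FPKM), 6.65 FPKM in PSPC1-CT131 (180 reads) and 7.59 FPKM in Mut-NLS (198 reads). It had 10.3 FPKM in Huh-7 untreated (230 reads, 8.99 to 11.7 FPKM) and 17.9 FPKM in Huh-7 HGF (373 reads, 16.1 to 19.8 FPKM). CRYL1 was lowest in the control library of each of these lines. IFT88 (chr13:20567069-20691437, plus strand) went the other way, with 4.29 FPKM in Mahlavu mock (166 reads), 2.13 FPKM in PSPC1-CT131 (72 reads) and 3.23 FPKM in Mut-NLS (105 reads). In Huh-7 untreated and HGF, IFT88 had 6.27 and 5.89 FPKM (175 and 153 reads). XPO4 (chr13:20777329-20903048, minus strand), the last gene of the interval, had 7.88 FPKM in Mahlavu mock (943 reads, 7.39 to 8.40 FPKM), 3.82 FPKM in PSPC1-CT131 (399 reads) and 5.81 FPKM in Mut-NLS (585 reads). XPO4 had 9.90 FPKM in Huh-7 untreated (855 reads) and 9.23 FPKM in Huh-7 HGF (742 reads). Mahlavu mock was 300.4-fold above the level of 3 reads in SK-hep1 mock for XPO4, 52.9-fold for IFT88 and 44.9-fold for CRYL1. These distances follow from how the members were chosen and are not findings.

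TUBA3C (chr13:19173770-19181852, minus strand) had 12.1 FPKM in Mahlavu mock (403 reads, 10.9 to 13.3 FPKM), 14.1 FPKM with PSPC1-CT131 (411 reads) and 7.31 FPKM with Mut-NLS (205 reads). It was listed at 0 in both Huh-7 libraries, and Mahlavu mock was 97.0-fold above the level of 3 reads in Huh-7 untreated. The reads of TUBA3C are uncertain, since its reading frame is identical at 96.6% of 1353 bases to TUBA3D and at 96.2% to TUBA3E, and the way the counting treated reads that fit several genes is not given in the sources used here. TUBA3D had 1.14 FPKM in Mahlavu mock, 0.605 FPKM in Huh-7 untreated and 0.320 FPKM in SK-hep1 mock, so reads of this family were present in the lines where TUBA3C had none. The 3 records together had 434 reads for Mahlavu mock, 426 for PSPC1-CT131, 212 for Mut-NLS and 10 for Huh-7 untreated.

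Of the 38 further records in the interval, 5 had at least 10 reads in a library. EEF1AKMT1, a lysine methyltransferase of elongation factor eEF1A, had 6.89 FPKM in Mahlavu mock (122 reads) and 4.69 FPKM in Huh-7 untreated (60 reads). IL17D, an interleukin, had 1.08 FPKM and 1.14 FPKM in these libraries (30 and 23 reads). The lincRNA ENSG00000275964, which starts beside ZMYM5 on the other strand, had 2.66 FPKM and 0.974 FPKM (72 and 19 reads). The unprocessed pseudogene ENSG00000121388, next to TUBA3C, had 80, 63 and 30 reads in the Mahlavu libraries and was listed at 0 in both Huh-7 libraries, as TUBA3C was. KRR1P1, a processed pseudogene inside ZMYM2, had 10 and 13 reads in Huh-7 untreated and HGF and at most 3 reads in a Mahlavu library. The strand setting of the counting is not given in the sources used here, so the reads of overlapping records cannot be told apart. All 5 were at 0 reads in the 5 SK-hep1 libraries.

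In Mahlavu cells the comparison of PSPC1-CT131 with mock asks what the C-terminal piece of PSPC1 does to expression, and here it was read for the neighbours of the endogenous gene. Fold changes are log2 differences of quantile-normalized FPKM + 1, for genes that averaged 1 FPKM or more over both libraries, and were called at 2-fold. Of 12415 genes tested, 3.17% were called higher and 3.16% lower, and 0 of the 8 members tested were called, with GJB2 below the filter. The log2 values of the 8 ran from -0.50 for XPO4 to 0.87 for CRYL1, with a median of -0.29 against 0.01 over all genes. The ratio of reads per total was 0.485 for XPO4 (0.430 to 0.545), 0.497 for IFT88 (0.371 to 0.659), 0.505 for ZMYM2 (0.446 to 0.572) and 0.567 for GJA3 (0.500 to 0.642). It was 0.595 for ZMYM5 (0.448 to 0.785) and 0.651 for MPHOSPH8 (0.577 to 0.733), and above 1 for CRYL1 (1.46, 1.17 to 1.84) and TUBA3C (1.17, 1.02 to 1.34). These intervals lay below 1 for 6 members and above 1 for 2, and they hold no error between cultures. Over all 12415 genes the interval lay below 1 for 53.6% and above 1 for 22.1%. FPKM as deposited, the scale of these ratios, placed the median of all genes at -0.24, with 1.49% called higher and 7.67% lower, and the read ratios carry the same shift. PSPC1 itself had 1582 reads in Mahlavu mock, 899 in PSPC1-CT131 and 632 in Mut-NLS. Its read ratio to mock was 0.651 (0.599 to 0.707, log2 value -0.43) in PSPC1-CT131. In Mut-NLS it was 0.475 (0.432 to 0.521, log2 value -1.06). These counts do not separate reads of the introduced piece from those of the endogenous gene.

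The GC content of the longest transcript moved with this comparison and with that of PSPC1-CT131 against Mut-NLS. Across 12402 genes the log2 change against mock correlated with GC (Spearman's rho 0.566, and 0.574 over 12440 genes against Mut-NLS, a description across genes, which are not independent replicates). The 6 members with ratios below 1 had a GC content of 36.8% to 46.5%, and the 2 above 1 had 49.0% and 58.2%, against a median of 48.8% over tested genes. After a linear fit on GC and transcript length was removed, which was decided on once the values had been seen, the median of the 8 members was -0.08 and ZMYM5 turned from -0.14 to 0.23. The part that GC plays in the values of the members was not tested.

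Mut-NLS against mock gave 3.16% of 12425 genes called higher and 3.26% lower, and 0 of 8 members. The comparison shares the mock library with the one above. CRYL1 had a log2 value of 0.79 and a read ratio of 1.67 (1.34 to 2.09), and GJA3 0.42 and 1.23 (1.11 to 1.36). TUBA3C had -0.56 and 0.605 (0.509 to 0.717), and MPHOSPH8 -0.29 and 0.772 (0.688 to 0.865). For XPO4 the log2 value was -0.24 with a ratio of 0.737 (0.664 to 0.818), and for IFT88 it was -0.12 with 0.752 (0.583 to 0.966). ZMYM2 and ZMYM5 had ratios of 0.970 (0.875 to 1.07) and 0.942 (0.736 to 1.20), and the sign of their log2 values, 0.09 and 0.15, turned negative with FPKM as deposited. The interval lay above 1 for 2 of the 8 and below 1 for 4, against 28.4% and 42.2% of all genes. PSPC1-CT131 against Mut-NLS had 4.23% of 12453 genes called higher and 4.59% lower, with 1 member called. TUBA3C was higher in PSPC1-CT131, by a log2 value of 1.14 and a read ratio of 1.93 (1.63 to 2.30), a call that was lost with FPKM as deposited (0.86). GJA3 had the lowest value, -0.70, with a ratio of 0.460 (0.406 to 0.521), followed by ZMYM2 with -0.57 and 0.521 (0.458 to 0.592). With GC and length removed these became -0.62 and -0.17, and MPHOSPH8, ZMYM5, IFT88 and XPO4 turned from negative values to between 0.11 and 0.17. The interval lay above 1 for 1 of the 8 and below 1 for 6, against 29.3% and 45.6% of all genes. FPKM as deposited gave 2.36% of genes higher and 7.54% lower here, and 2.17% and 4.55% for Mut-NLS against mock.

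The comparison of HGF with untreated Huh-7 cells was read for 7 members. Of 14262 genes, 0.428% were called higher and 0.393% lower with HGF, and 0 of the 7 were called, with TUBA3C and GJA3 listed at 0 in both libraries. CRYL1 came nearest, with a log2 value of 0.75 and a read ratio of 1.74 (1.47 to 2.06). GJB2 had 0.32 and 1.45 (1.01 to 2.10). The other 5 had ratios between 0.887 (ZMYM5, 0.705 to 1.11) and 0.975 (ZMYM2, 0.903 to 1.05), with intervals that include 1. Over 13910 genes with recovered reads, the interval lay above 1 for 13.1% and below 1 for 14.7%.

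**Figure D3:**
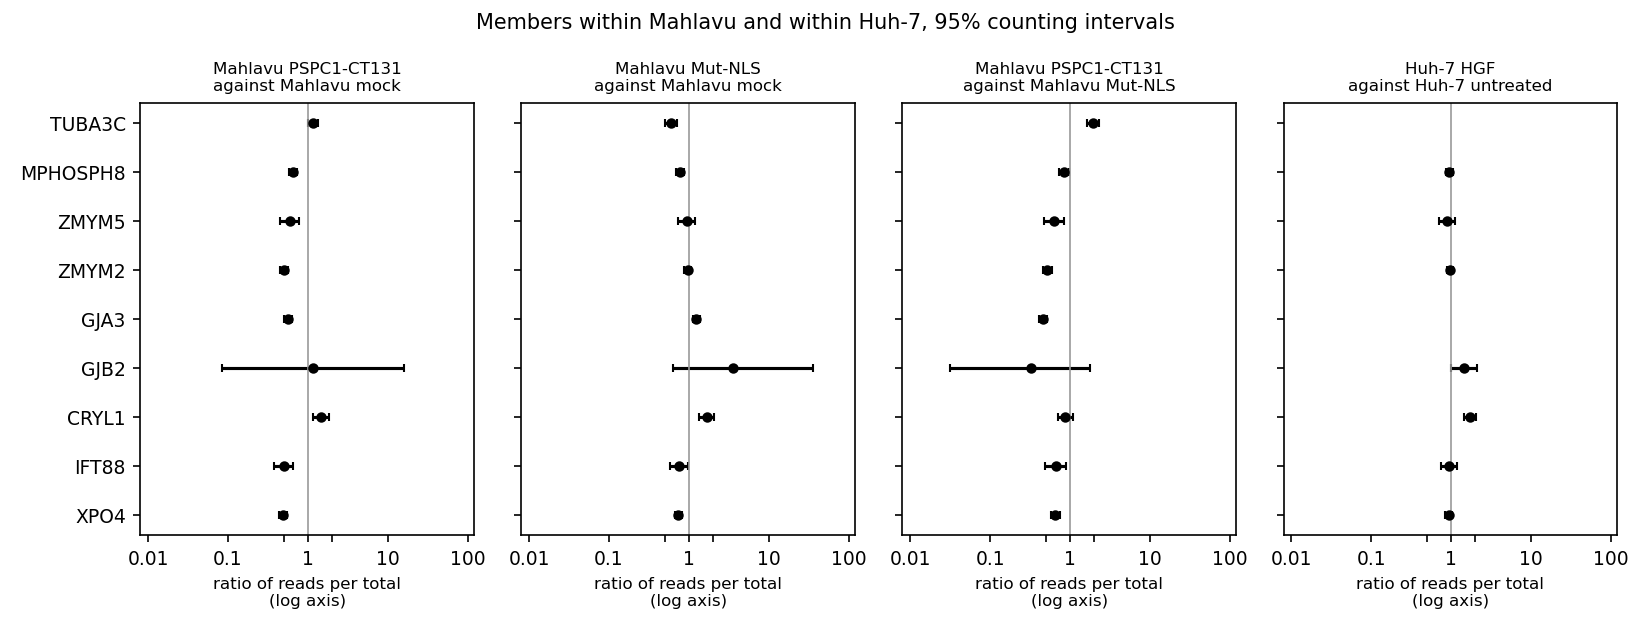
Ratio of reads per library total (horizontal log axis) for the 9 members (rows) in 3 Mahlavu comparisons and in Huh-7 HGF against untreated, with bars for the exact binomial 95% interval. In the left panel 6 members lie below 1 with their intervals, in the right panel CRYL1 stands at 1.74, and the wide bars belong to GJB2, which had 2 to 6 reads in Mahlavu; TUBA3C and GJA3 have no point in Huh-7.

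Between the lines that express the genes, Huh-7 untreated was compared with Mahlavu mock after quantile normalization over all 10 libraries. Of 13594 genes, 22.6% were called higher in Huh-7 and 23.7% lower, and 8 members passed the filter. TUBA3C and GJA3 passed it only through Mahlavu, so their being lower in Huh-7, where they were at 0, was fixed by the filter. Of the 6 others, 2 were called. ZMYM2 was higher by a log2 value of 1.32 (read ratio 2.33, 2.14 to 2.54) and CRYL1 by 1.04 (2.26, 1.82 to 2.81). MPHOSPH8, ZMYM5, IFT88 and XPO4 had values between 0.31 and 0.55 and were not called. The deposited FPKM of the 2 Huh-7 libraries lay above those of the 3 Mahlavu libraries for 7 members and below them for 2. The share of all genes with such a separation was not counted, so nothing is read from this. Huh-7 was deposited as a separate set of tables, so a difference between the lines and one between the sets of tables cannot be told apart. In SK-hep1 mock against Mahlavu mock, 16.6% of genes were called higher and 16.9% lower, and all 8 members tested were lower. In SK-hep1 mock against Huh-7 untreated the shares were 25.9% and 24.9%, and all 6 tested were lower. Those 2 comparisons repeat how the members were chosen, and nothing is read from them.

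Genes that work with the members were read in SK-hep1 mock from 9 lists of partners and relatives, which hold other genes than the 9. Of the list genes tested, 5 of 58 were at least 2-fold higher and 6 of 58 lower than in Mahlavu mock. Against Huh-7 untreated, 12 of 61 were higher and 13 of 61 lower, beside the shares over all genes above. Some of the genes called lower were near 0 in SK-hep1 mock and passed the filter only through the other line. They include GJA1 (0.0152 FPKM), GJB1 and RGN (0 FPKM each) against Huh-7, and TUBA4A (0.309 FPKM) in both comparisons. For these genes, being lower was fixed by the filter. The median log2 value of the list genes was 0.20 against Mahlavu mock and 0.07 against Huh-7 untreated, beside 0.04 for all genes in each. FPKM as deposited turned both list medians to -0.16 and -0.17, with the medians of all genes at -0.41 and -0.40, and gave 9.56% higher and 29.4% lower against Mahlavu and 18.9% higher and 35.2% lower against Huh-7 over all genes.

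For the HUSH complex, where MPHOSPH8 belongs, 0 of 6 partners were past 2-fold against Mahlavu mock, and 1 of 6 was lower than in Huh-7 untreated (ATF7IP, -2.04). With FPKM as deposited, 1 of 6 was lower than in Mahlavu mock, namely the subunit TASOR with 12.2 against 25.7 FPKM (-0.58 after quantile normalization). Of the LSD1-CoREST-HDAC partners of ZMYM2, 0 of 10 were past 2-fold against Mahlavu mock, and 1 of 11 was higher and 3 of 11 lower than in Huh-7. As deposited, HDAC2 was also lower than in Mahlavu mock, and ZMYM3, which stands in this list and the next, was no longer higher than in Huh-7. Of the other MYM-type genes, 0 of 5 passed against Mahlavu mock and ZMYM3 (1.14) was higher than in Huh-7. For the importin-beta exportins related to XPO4, 0 of 6 passed against Mahlavu mock and XPO7 (-1.50) was lower than in Huh-7. The XPO4 cargoes and partners gave 1 of 4 lower than Mahlavu mock (EIF5A2, -1.95) and 3 of 4 higher than Huh-7.

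The genes of the remaining lists are given for both comparisons, which share the SK-hep1 mock library. GJC1, 1 of 2 connexins tested against Mahlavu mock, had 42.2 FPKM in SK-hep1 mock and was higher in both comparisons (log2 2.04 and 1.73). GJA1 and GJB1, the connexins with 66.8 and 31.6 FPKM in Huh-7 untreated, were at 0.0152 and 0 FPKM in SK-hep1 mock and at 0.0145 and 0.0314 FPKM in Mahlavu mock. In the IFT-B complex, 1 of 16 genes was higher and 2 of 16 lower against Mahlavu mock. Against Huh-7, 4 were higher and 1 lower. With FPKM as deposited, 1 was higher and 3 lower against Mahlavu mock. Against Huh-7, 0 were then higher and 2 lower (IFT80 and IFT20). IFT172 was higher in both comparisons (1.58 and 1.43), though as deposited it was past 2-fold only against Mahlavu mock. Among alpha tubulins 1 of 4 was higher and 1 of 4 lower against Mahlavu mock, and 3 higher and 1 lower against Huh-7. TUBA1B was higher in both (1.24 and 1.47), and TUBA4A was lower (-7.14 and -3.82), from 199.8 FPKM in Mahlavu mock to 0.309 FPKM in SK-hep1 mock. In the glucuronate-xylulose pathway of CRYL1, UGDH (-1.34 and -3.11) and UGP2 (-1.15 and -1.80) were lower in both, among 2 of 6 genes called lower and 2 of 6 higher against Mahlavu mock, and 4 of 7 lower against Huh-7. The lists were described by their counts, and their change was not tested as sets.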

How the data were processed

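RNA was measured by RNA-Seq in 10 libraries, grouped by their labels, with 1 library per condition and therefore no test of a condition and no p-value. The authors deposited raw read counts per gene and FPKM, which scales reads to gene length and library total, for SK-hep1 and Mahlavu, and FPKM only for Huh-7. The submitters' processing notes name TopHat2 2.0, HTSeq 0.6.1, edgeR and GRCh38.p12, while the study's methods name another build. The labels describe selection by poly-T beads and the methods rRNA depletion. From each of the tables, 8 lines that hold broken-off annotation text and no gene were left out. Symbols were matched for 57532 of 58302 Ensembl identifiers, and 97.6% of 58039 records shared with GENCODE 29 have its position (GJB2 and CRYL1 do not).

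Whole reads of the Huh-7 libraries were recovered from FPKM and the gene length in 100% of values within 0.01, for 30246 genes with a length, giving totals of 16374128 and 15245935 reads. Of the 48 records in the interval, 20 have no such length. FPKM were quantile normalized over the 8 SK-hep1 and Mahlavu libraries, over both Huh-7 libraries, or over all 10 for comparisons with Huh-7. Log2 fold changes used a pseudocount of 1 and a mean of at least 1 FPKM. Counting error was given by exact Poisson and exact conditional binomial 95% intervals and a limit of 3 reads. The members and lists were chosen with earlier results of these data known. Named genes were the members, PSPC1, other records of the interval with at least 10 reads, the nearest expressed records on each side, 5 genes without SK-hep1 reads elsewhere, close paralogs, and list genes past 2-fold against both lines. Other list genes and the runs on chromosome 19 were named after their values were seen. Promoters came from RefSeq and reading frames and GC from GENCODE 29 transcripts, aligned with Biopython 1.88. Alternatives were other pseudocounts (0.1 and 5), filters and scalings, including TMM factors of edgeR 4.0.16, and leaving out each SK-hep1 library. The calculations were tested on simulated data. Python 3.11.15, pandas 2.3.3, numpy 2.4.6, scipy 1.17.1 and R 4.3.3 were used.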

Additional observations from a re-analysis of the deposited data

How the results depend on the processing

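Of the 63 counts recomputed under alternatives, 52 stayed within 1.5 times the reported count. With a pseudocount of 0.1, 1 member (CRYL1) was called in PSPC1-CT131 against mock in place of 0. The call of TUBA3C in PSPC1-CT131 against Mut-NLS fell to 0 members with a pseudocount of 5, unnormalized FPKM, FPKM brought to a common library sum, or the GC and length fit added after seeing the data. Between Huh-7 untreated and Mahlavu mock, the 4 members past 2-fold, counted with TUBA3C and GJA3, became 2 with a pseudocount of 5 and 2 with a mean of at least 5 FPKM. The genes without SK-hep1 reads numbered 304 with at most 3 reads in each library, 29 with at least 5 FPKM in the other lines, 690 with at least 0.1 FPKM, and 298 in SK-hep1 mock only. Leaving out each SK-hep1 library gave 144 to 158 such genes. The members without reads, counted over all 9 whether or not they reached that level, numbered 8 to 9, with 9 when PSPC1-YF, which holds the single MPHOSPH8 read, was the library left out. Of the 39 log2 values of members, 8 changed sign under at least 1 alternative. The causes were not tested.

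No paired analysis was possible because each condition has 1 library. Levels of the members under 0.0263 to 0.101 FPKM, what 3 reads are worth, could not be seen in SK-hep1 mock, so an absence of reads is not an absence of RNA. Cultures were not replicated, and the intervals are too narrow to that extent.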

Other observations

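On chromosome 19, the genes without SK-hep1 reads were mostly zinc finger genes. Of the 136 such genes over the genome, 38 carried a symbol of ZNF with a number, and 37 of these lay on chromosome 19. Zinc finger genes of this kind are known to lie in clusters and to encode repressors of retroelements, and their number among the genes without reads was noticed after the values were seen and was not tested. With at most 1 read allowed in each SK-hep1 library, 208 genes qualified, 8 of them in the interval, where MPHOSPH8 joined the others.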
